A study of Homo sapiens with 2 samples.

Results

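The replication-dependent histone genes described here are the 70 genes whose symbols begin with HIST1H, HIST2H or HIST3H, out of 36601 genes counted. They comprise 6 linker H1 genes, 17 H2A, 18 H2B, 15 H3 and 14 H4 genes. The rule uses only the symbol and no measured value. The cells were CD7+ cells derived from H1, a human embryonic stem cell line that was not genetically modified, so each group comes from a single line. Both groups went through 12 days of hematopoietic differentiation followed by co-culture on OP9-DLL4, a mouse stromal line that displays the Notch ligand DLL4, and were sorted for surface CD7 after 10 or 14 days of that co-culture. Each day has 1 droplet-based 3′ library of single cells, with no replicate library, so no test between days was possible and no p-value is given. Intervals in parentheses are exact 95% intervals of the counts and cover counting error only, not differences between cultures.

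Replication-dependent histone genes supply the histones that package newly made DNA. H2A, H2B, H3 and H4 form the core of the nucleosome, and H1 binds the linker DNA between nucleosomes. The genes lie in clusters, usually lack introns, and are transcribed mainly in S phase. Their mRNAs end in a stem-loop in place of a poly(A) tail, and the stem-loop-binding protein SLBP binds it and guides processing, translation and decay. Early T cell precursors divide many times in the course of their development, and they also rearrange their receptor genes. A 3′ kit primes on runs of A, and the UMIs of these genes therefore come from the fraction of their RNA that could be primed. A UMI, or unique molecular identifier, stands for 1 captured transcript irrespective of gene length, so the levels below are given as counts per 1000000 UMIs (CPM). How efficiently each histone gene is captured is unknown, so a difference in level between members is a difference in captured RNA.

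A barcode was kept where it had between 1000 and 7000 genes with a UMI and no more than 18% of UMIs from mitochondrial genes, which left 12114 cells at day 10 and 8929 at day 14, with medians of 16174 and 15029 UMIs per cell. Doublets were kept, and 29 kept barcode sequences occurred in both libraries. *CD7*, the gene of the sorted protein, stood at 184 and 336 CPM, and *CD3D*, a chain of the T cell receptor complex, at 1597 and 2424 CPM. Markers of other cells differed between the days. All 4 myeloid or antigen-presenting genes were lower at day 14, *HLA-DRA* at 577 and 4.12 CPM, and all 5 cytotoxic lymphocyte genes were higher, *GNLY* at 86.1 and 1829 CPM, with none of them at 0 in either library. Barcodes with 1 to 100 UMIs, in which free RNA of the suspension is counted, carried histone RNA at 1343 CPM at day 10 against 2452 CPM at day 14.

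The stem-loop is the feature that defines the family, and it was looked for in the 150 bases after the stop codon on GRCh38. Of the 70 members, 68 could be placed by gene ID in an annotation of that build, 55 of them on chromosome 6 and 13 on chromosome 1. All 68 had the element in this window, a stem of 6 base pairs around a loop of 4 bases, and 66 had no mismatch in the stem. It began 22 bases after the stop codon in *HIST1H4J* and *HIST1H4K*, the shortest distance, and 62 bases after it in *HIST1H2AB*, the longest. The sequences below are those of the member with the most UMIs in each histone type. After them come 3 members whose order between cycling states, described further below, ran opposite to most members on both days. All sequences are written 5′ to 3′ on the strand of the gene, with stem and loop in capitals.
HIST1H1D (H1, chr6:26234212-26234237, minus strand): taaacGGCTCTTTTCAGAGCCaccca
HIST2H2AC (H2A, chr1:149887386-149887411, plus strand): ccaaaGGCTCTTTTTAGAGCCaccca
HIST1H2BH (H2B, chr6:26252050-26252075, plus strand): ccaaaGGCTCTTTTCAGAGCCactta
HIST1H3D (H3, chr6:26196784-26196809, minus strand): ccaaaGGCTCTTTTCAGAGCCaacca
HIST1H4C (H4, chr6:26104312-26104337, plus strand): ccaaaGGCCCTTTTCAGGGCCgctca
HIST1H2AC (H2A, chr6:26124664-26124689, plus strand): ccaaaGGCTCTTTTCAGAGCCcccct
HIST3H2A (H2A, chr1:228457364-228457389, minus strand): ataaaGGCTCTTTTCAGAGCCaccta
HIST1H2BD (H2B, chr6:26158582-26158607, plus strand): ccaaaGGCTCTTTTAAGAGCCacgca

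The 68 elements fell into 10 distinct sequences. The form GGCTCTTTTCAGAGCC was shared by 39 members of H1, H2A, H2B and H3, and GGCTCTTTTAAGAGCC by 10 members of the same types. The form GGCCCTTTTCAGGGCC was found in 9 members, all of them H4 genes, among them *HIST1H4C*. *HIST1H2AC*, *HIST3H2A* and *HIST1H2BD*, with the opposite order between states on both days, carried an element with a perfect stem, 2 of them the most frequent form. They differed from most members in another respect. The annotated gene models of 51 members ended within 100 bases of the stem-loop, whereas 17 had models that continued further. They continued by 14432 bases in *HIST1H2AC*, 22592 in *HIST3H2A* and 12747 in *HIST1H2BD*. These models are those of GENCODE 44, and the gene models with which the authors counted UMIs were not examined. The long models were noticed in the inverse members first, and all members were grouped by model after their values had been seen.

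Histone RNA stood higher at day 14 than at day 10 in the sum of all members and in each of the histone types. The 70 members together held 379055 UMIs at day 10, or 1808 CPM (1802 to 1814), and 804819 UMIs at day 14, or 5225 CPM (5214 to 5237). The day 14 level was 2.89 times that of day 10 (2.88 to 2.90). Of the members, 61 stood higher at day 14, 3 lower and 6 had no UMI on either day. This order takes no account of counting error, and *HIST2H3C*, with 1 UMI on each day, is among those higher. The share of all genes that stood higher by the same order was not counted. Among the 22 members with a mean of both days of at least 10 CPM, 15 were more than 2-fold higher at day 14 and 0 were more than 2-fold lower on the log2(CPM + 5) scale. Over all 7827 genes that passed the same filter, 4.18% were more than 2-fold higher and 2.16% more than 2-fold lower. The median log2 ratio was 1.32 in these members and -0.01 in all genes. With 1 library per day, the day, the culture and the library cannot be told apart, and a higher share of cells with histone RNA and more RNA per cell are both part of a summed level.

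**Figure D1:**
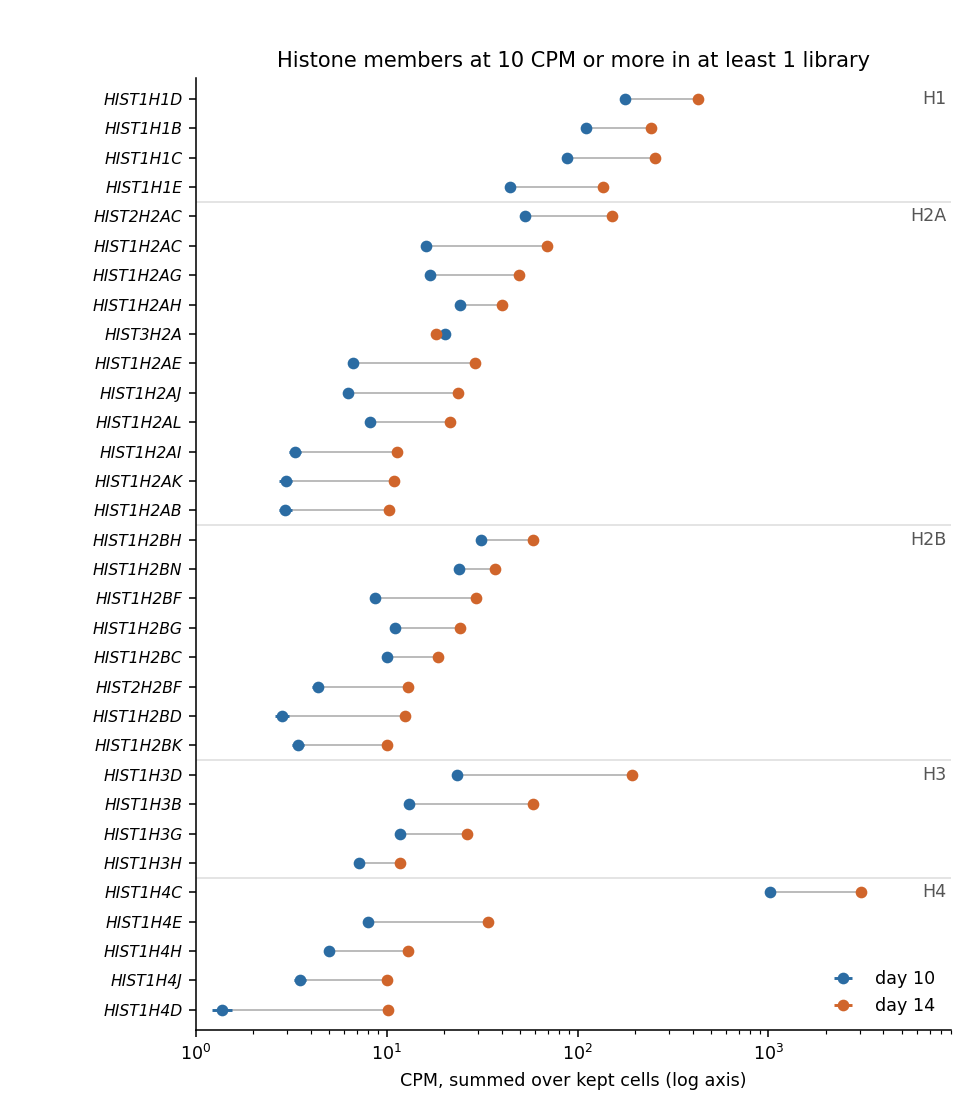
Levels of the 32 members that reached 10 CPM in a library, in CPM summed over kept cells on a log axis, by histone type. Points are the day 10 and day 14 libraries with exact 95% counting intervals, most of them smaller than the points, and *HIST3H2A* is the one member shown whose day 14 point lies to the left.

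In the paragraphs on single members, paired values are those of day 10 and then day 14. Among the linker histones, 4 of the 6 members made up nearly all of the signal. The H1 sum stood at 420 CPM at day 10 against 1061 CPM at day 14, a ratio of 2.52 (2.503 to 2.544). *HIST1H1D*, which encodes H1.3, stood at 177 and 429 CPM, *HIST1H1C* (H1.2) at 88.0 and 254 CPM, *HIST1H1B* (H1.5) at 111 and 242 CPM, and *HIST1H1E* (H1.4) at 43.95 and 136 CPM. All 4 were past 2-fold. The order of *HIST1H1B* and *HIST1H1C* differed between days, with *HIST1H1B* the higher at day 10 and *HIST1H1C* at day 14, beyond the counting intervals on both days. *HIST1H1A* (H1.1) stood at 0.129 and 0.247 CPM, and *HIST1H1T*, the testis H1, at 0.0429 and 0.0390 CPM.

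The H2A and H2B genes had the broadest membership and lower levels. The H2A sum stood at 168 and 457 CPM, a ratio of 2.72 (2.69 to 2.76), and the H2B sum at 110.5 and 237 CPM, the lowest ratio of the types at 2.14 (2.11 to 2.18). *HIST2H2AC*, the highest H2A gene, stood at 53.0 and 151 CPM. *HIST1H2AC* stood at 16.1 and 69.0 CPM, *HIST1H2AG* at 16.9 and 49.3 CPM and *HIST1H2AE* at 6.65 and 28.9 CPM. *HIST1H2AJ* stood at 6.26 and 23.6 CPM and *HIST1H2AL* at 8.13 and 21.3 CPM, both past 2-fold, and *HIST1H2AI*, at 3.31 and 11.3 CPM, was below the filter on the mean. *HIST1H2AH*, at 24.2 and 40.2 CPM, did not pass 2-fold. *HIST3H2A* was the one member above 10 CPM that was lower at day 14, at 20.1 and 18.02 CPM, a ratio of 0.896 (0.853 to 0.940). In the day 10 library, *HIST3H2A* stood at 210 CPM in barcodes with 1 to 100 UMIs, more than in the cells, and it made up much of the H2A level of 357 CPM in those barcodes. Of the H2B genes, only *HIST1H2BF* among the 5 that passed the filter was past 2-fold, at 8.63 and 29.2 CPM. *HIST1H2BH*, the highest H2B gene, stood at 31.3 and 58.5 CPM, *HIST1H2BN* at 23.9 and 36.7 CPM, *HIST1H2BG* at 11.1 and 24.2 CPM, and *HIST1H2BC* at 10.1 and 18.6 CPM. *HIST1H2BK*, at 3.44 and 10.01 CPM, was below the filter. The plain ratio of *HIST1H2BG*, 2.19, was above 2, but with 5 CPM added to both levels it did not pass, and the same held for *HIST1H3G*, at 2.24.

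The H3 genes had the largest ratio of the types. Their sum stood at 68.0 CPM at day 10 against 320 CPM at day 14, a ratio of 4.71 (4.62 to 4.79), and *HIST1H3D* accounted for 34.2% of it at day 10 and 60.3% at day 14. *HIST1H3D* stood at 23.3 and 193 CPM, a ratio of 8.28 (8.04 to 8.54), the highest of the 32 members at 10 CPM or more in a library. *HIST1H3B* stood at 13.1 and 58.5 CPM, *HIST1H3G* at 11.7 and 26.2 CPM and *HIST1H3H* at 7.12 and 11.8 CPM. The coding sequences of the H3 genes are nearly the same, and these values follow the authors' assignment of reads to genes. Among the 68 placed members, only the pairs *HIST2H3A* and *HIST2H3C*, and *HIST2H4A* and *HIST2H4B*, shared all of the 300 bases before the end of the stem-loop. Reads within these pairs cannot be told apart there, and the pairs held few UMIs. Other members were close to another there. *HIST1H2BD* matched *HIST1H2BC* in 281 of the 300 bases and *HIST1H2BK* in 276, and *HIST1H2AH* matched *HIST1H2AJ* in 265. Their counts too depend on how reads were assigned, which was not examined.

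The H4 sum was close to the level of a single gene. *HIST1H4C* (chr6:26103933-26104337, a gene of 1 exon on the plus strand) stood at 1018 CPM at day 10 against 3071 CPM at day 14, a ratio of 3.02 (3.002 to 3.032). It held 97.8% and 97.5% of H4 UMIs and 56.3% and 58.8% of all histone UMIs. Without it the other 69 members together still stood 2.73 times higher at day 14 (2.71 to 2.74). *HIST1H4E* stood at 7.95 and 34.0 CPM, *HIST1H4H* at 4.97 and 12.9 CPM, *HIST1H4J* at 3.49 and 10.0 CPM, and *HIST1H4D* at 1.37 and 10.1 CPM. The last had a ratio of 7.36 (6.49 to 8.38) from 288 and 1558 UMIs. The 6 members with no UMI on either day were *HIST1H2AA*, *HIST1H2BA*, *HIST1H3C*, *HIST1H4G*, *HIST1H4K* and *HIST3H3*. By a floor of 3 counts per library, used here in place of the exact interval, 0 UMIs allow up to 0.0143 CPM at day 10 against 0.0195 CPM at day 14. *HIST1H4K* differs from *HIST1H4J* in 2 of the 300 bases before the end of the stem-loop, with 298 identical, so its count depends on how reads were assigned.

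To set the histone levels beside the cell cycle, each cell with at least 5000 UMIs was thinned at random to 5000 UMIs and placed in a state by its UMIs of *PCNA*, the sliding clamp of DNA polymerase, and of *MKI67* and *TOP2A*, genes of cells from late S phase through mitosis. Of 11823 cells at day 10, 1502 had neither kind of UMI, 2559 had *PCNA* only, 5520 had both and 2242 had *MKI67* or *TOP2A* only. Of 8547 cells at day 14, the numbers were 2124, 1773, 3172 and 1478. Cells with neither kind thus made up 12.7% at day 10 and 24.9% at day 14, and the states with *MKI67* or *TOP2A* were less frequent on the later day, on which histone RNA stood higher. These states are ranges of UMIs, not cycle phases. A cell placed in neither can still have transcribed these genes, as shown by *PCNA* at 103 and 55.4 CPM in all UMIs of those cells, against 402 and 478 CPM in *PCNA*-only cells.

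Histone RNA was highest on both days in cells with both kinds of UMI. At day 10 the sum of members stood at 479 CPM in cells with neither, 1105 CPM with *PCNA* only, 2362 CPM with both and 1727 CPM with *MKI67* or *TOP2A* only. At day 14 it stood at 1121, 1585, 8102 and 5909 CPM in the same order. Relative to neither, cells with both were 4.93 times higher at day 10 (4.83 to 5.04) and 7.23 times at day 14 (7.14 to 7.32), and cells with *MKI67* or *TOP2A* only were 3.61 times (3.53 to 3.69) and 5.27 times (5.21 to 5.34) higher. The *PCNA*-only cells stood apart from neither by less, 2.31 times at day 10 (2.26 to 2.36) and 1.41 times at day 14 (1.39 to 1.43). With states set from unthinned UMIs of all kept cells the day 10 value was 1.33, and with cells thinned to 3000 UMIs the day 10 ratio of cells with both kinds was 3.14. The day 14 *PCNA*-only value was 1.08 without *HIST1H4C*, and 0.854 with unthinned states. The 3 comparisons of a day share the cells with neither. The states differed in depth. Median UMIs per cell were 12345 in neither and 17905 in both at day 10, and 10951 and 19812 at day 14. Barcodes with 1 to 100 UMIs stood above the neither cells, at 1343 and 2452 CPM. No background was subtracted, and its effect on the state ratios was not tested. Without *HIST1H4C* the ratios of cells with both kinds were 3.25 at day 10 and 4.32 at day 14, and those of cells with *MKI67* or *TOP2A* only were 2.36 and 2.87. Markers of other cells and of the sort differed between the states too. *CD7* stood at 180 to 184 CPM in the day 10 states and at 603, 341, 237 and 314 CPM in those of day 14, in the order above. Of the cells with neither, 471 of 1502 at day 10 passed a gate of at least 10 UMIs of 4 myeloid genes, and 925 of 2124 at day 14 passed the same gate for 5 cytotoxic genes. In cells with at least 2 CD3 UMIs that passed neither gate, the ratio of cells with both kinds of UMI to cells with neither was 4.19 at day 10 and 6.90 at day 14.

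**Figure D2:**
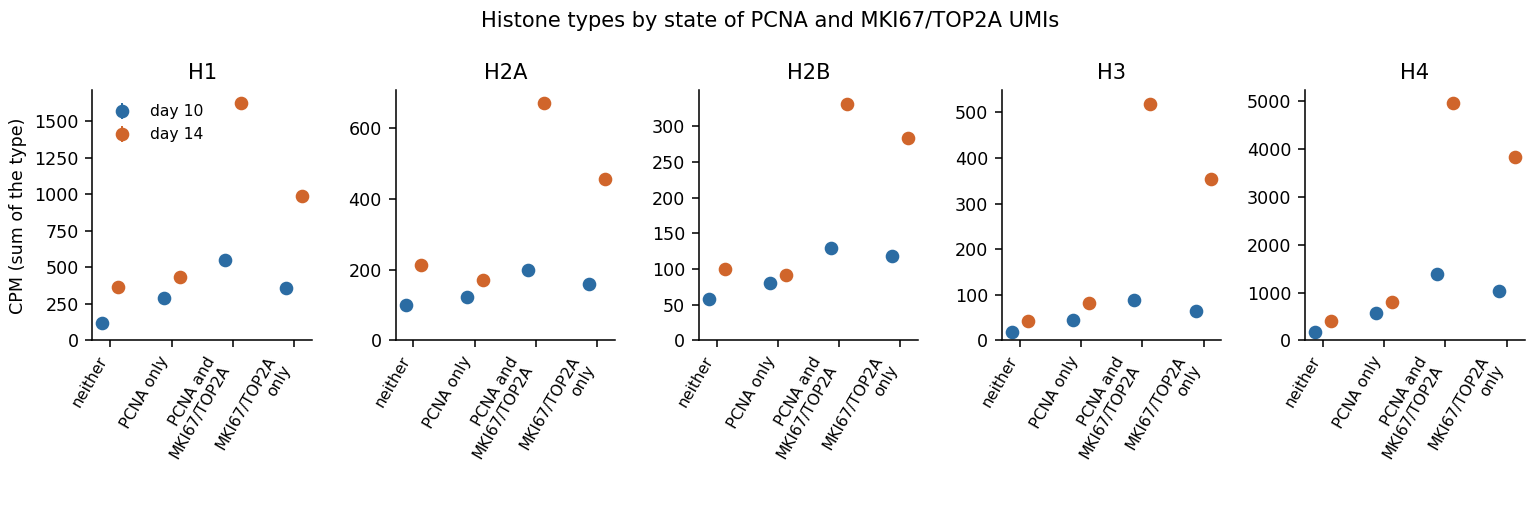
Summed CPM of each histone type in cells with neither kind of UMI, *PCNA* only, *PCNA* and *MKI67* or *TOP2A*, and *MKI67* or *TOP2A* only, by day, with exact 95% counting intervals smaller than the points. In each panel the day 14 point is highest in cells with both kinds, at 4956 CPM for H4 and 332 CPM for H2B.

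The types differed in how far they stood apart between states. In cells with both kinds of UMI over neither, the H4 ratio was 7.55 at day 10 and 12.5 at day 14, and the H3 ratio 4.75 and 12.3. The H1 ratio was 4.68 and 4.42, the H2A ratio 1.99 and 3.13 and the H2B ratio 2.25 and 3.30. In *PCNA*-only cells, H4 stood at 568 CPM against 184 CPM in neither at day 10, and at 805 against 396 CPM at day 14. H1 stood at 290 against 118 CPM at day 10 and at 435 against 368 CPM at day 14. H2A and H2B were below the level of neither in the *PCNA*-only cells of day 14, with H2A at 172 against 215 CPM and H2B at 91.9 against 100 CPM.

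Counted by gene, the members past 2-fold were nearly all higher in the cycling states. In *PCNA*-only cells over neither at day 10, 4 of 11 members tested were higher and 0 lower, beside 0.865% and 2.49% of all genes. At day 14, 2 of 15 were higher and 1, *HIST1H2AC*, was lower, beside 2.46% and 0.295% of all genes. In cells with both kinds of UMI, 10 of 13 were higher and 0 lower at day 10, beside 2.93% and 3.42% of all genes, and 22 of 28 were higher and 0 lower at day 14, beside 6.03% and 2.09%. In cells with *MKI67* or *TOP2A* only, 8 of 13 were higher and 0 lower at day 10, beside 2.59% and 1.9% of all genes, and 18 of 26 were higher and 0 lower at day 14, beside 4.05% and 0.332%. With both kinds of UMI at day 14, the members tested but not past 2-fold were *HIST1H2AC*, *HIST1H2BD*, *HIST1H2BG*, *HIST1H3H*, *HIST1H4H* and *HIST3H2A*.

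*HIST1H3B*, which encodes the replicative H3.1, had the widest range between states. It stood at 1.43, 6.39, 17.4 and 14.3 CPM at day 10 in neither, *PCNA* only, both and *MKI67* or *TOP2A* only, and at 2.88, 12.1, 96.0 and 68.0 CPM at day 14. The ratio of both to neither was 12.2 (8.42 to 18.4) and 33.3 (26.6 to 42.4), the highest on each day among members with at least 200 UMIs in the compared cells. *HIST1H2AH*, at 2.46 CPM in neither and 69.6 CPM in both at day 14, had a ratio of 28.3 (22.2 to 36.9). *HIST1H1B* followed it at 16.8 and 415 CPM, a ratio of 24.7 (22.4 to 27.2). The ratio of *HIST1H4C* was 7.94 at day 10 and 13.2 at day 14, from 172 and 365 CPM in neither to 1366 and 4841 CPM in both. In cells with neither kind, the highest members after *HIST1H4C* were H1 genes, *HIST1H1D* at 47.4 and 175 CPM and *HIST1H1C* at 37.9 and 113 CPM.

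A few members had the opposite order. *HIST1H2AC* was highest in cells with neither kind of UMI, at 24.5 CPM at day 10 against 97.4 CPM at day 14, and lowest with *PCNA* only, at 11.6 and 36.4 CPM. In cells with both kinds it stood at 15.9 and 66.3 CPM, with ratios to neither of 0.648 (0.585 to 0.718) and 0.680 (0.648 to 0.715). *HIST3H2A* stood at 31.6 and 27.5 CPM in neither and at 17.9 and 15.6 CPM in both. *HIST1H2BD* stood at 3.92 and 21.1 CPM in neither and at 2.57 and 9.78 CPM in both. *HIST2H2BE* stood at 4.03 and 2.06 CPM at day 10, a ratio of 0.513 (0.395 to 0.672), and at 5.80 and 5.15 CPM at day 14, where the interval of the ratio held 1. At day 10, 43 members had at least 200 UMIs in the compared cells. The interval lay above 1 in 37 of them and below 1 in these 4. Of 51 such members at day 14 it lay above 1 in 46 and below 1 in *HIST1H2AC*, *HIST3H2A* and *HIST1H2BD*. The share of all genes with an interval above or below 1 was not counted.

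All of these inverse members have gene models that run past the stem-loop. The 17 members with such models held 5.65% of histone UMIs at day 10 and 4.27% at day 14. Most of them did not have the inverse order. Of the 12 long-model members with at least 200 UMIs in the compared cells at day 10, the interval of the ratio of both to neither lay above 1 in 7, below 1 in 4 and held 1 in 1, and of 13 at day 14 it lay above 1 in 9, below 1 in 3 and held 1 in 1. Of the short-model members it lay above 1 in 29 of 30 at day 10 and in 36 of 37 at day 14, and held 1 in the other. The share of all genes by this interval was not counted here either. The long-model sum stood at 102 CPM in neither and 108 CPM in cells with both kinds at day 10, a ratio of 1.06 (1.01 to 1.11), and at 203 and 262 CPM at day 14, a ratio of 1.30 (1.26 to 1.34). The 4 inverse members that prompted the grouping made up 64.02 of the 102 CPM and 152 of the 203 CPM in neither, and without them the ratios were 1.83 and 3.26. The 51 members with short models stood at 376 and 2252 CPM at day 10, a ratio of 5.99 (5.85 to 6.13), and at 917 and 7832 CPM at day 14, a ratio of 8.54 (8.43 to 8.65). At day 14, 3 of the 8 long-model members tested were past 2-fold in cells with both kinds, against 19 of the 20 short-model members, beside the 6.03% of all genes given above. The 8 included *HIST1H2AC*, *HIST3H2A* and *HIST1H2BD*, which prompted the grouping and were not past 2-fold, so the contrast was partly set by the grouping. *HIST2H2BF* was among the long-model members at 2.57 CPM in neither and 21.2 CPM in both at day 14, the widest ratio of this group on that day, and *HIST1H2BC* at 7.21 and 25.9 CPM. The files count UMIs per gene and not per transcript end, so RNA that ends at the stem-loop and RNA that runs past it cannot be told apart.

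**Figure D3:**
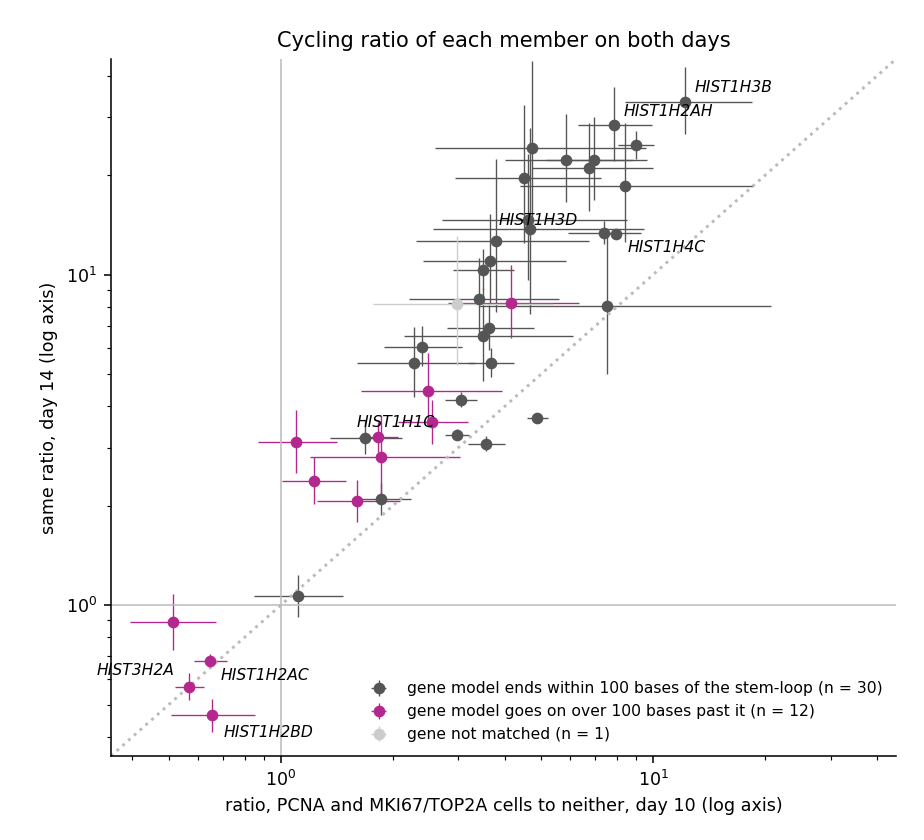
Ratio of CPM in cells with *PCNA* and *MKI67* or *TOP2A* UMIs to cells with neither, day 10 on the horizontal and day 14 on the vertical axis, both log, for members with at least 200 UMIs in the compared cells on both days, with exact 95% counting intervals. Members whose gene model goes on over 100 bases past the stem-loop (12 points, medians 1.42 and 2.60) sit lower than those with short models (30 points, medians 4.14 and 10.7), and *HIST1H2AC*, *HIST3H2A* and *HIST1H2BD* lie below 1 on both days. The long-model points and medians include the inverse members that prompted the grouping.

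Within a finer grid of UMIs, histone levels stood higher along both axes at day 14. Among cells with no *PCNA* UMI, the sum went from 1121 CPM with no *MKI67* or *TOP2A* UMI to 7947 CPM with 8 or more. Among cells with 4 or more *PCNA* UMIs, it went from 2316 to 14349 CPM, the latter in 172 cells. At day 10 the same corners stood at 479, 2143, 1574 and 3670 CPM, the last in 33 cells, and the highest bin was that of 4 or more *PCNA* and 4 to 7 *MKI67* and *TOP2A* UMIs, at 3873 CPM in 177 cells. *SLBP*, whose protein binds the stem-loop, had another layout. At day 14 it stood at 287 CPM in cells with 4 or more *PCNA* UMIs and no *MKI67* or *TOP2A*, where the histone sum was 2316 CPM, and at 29.5 CPM in cells with no *PCNA* and 8 or more *MKI67* and *TOP2A* UMIs, where the histone sum was 7947 CPM.

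**Figure D4:**
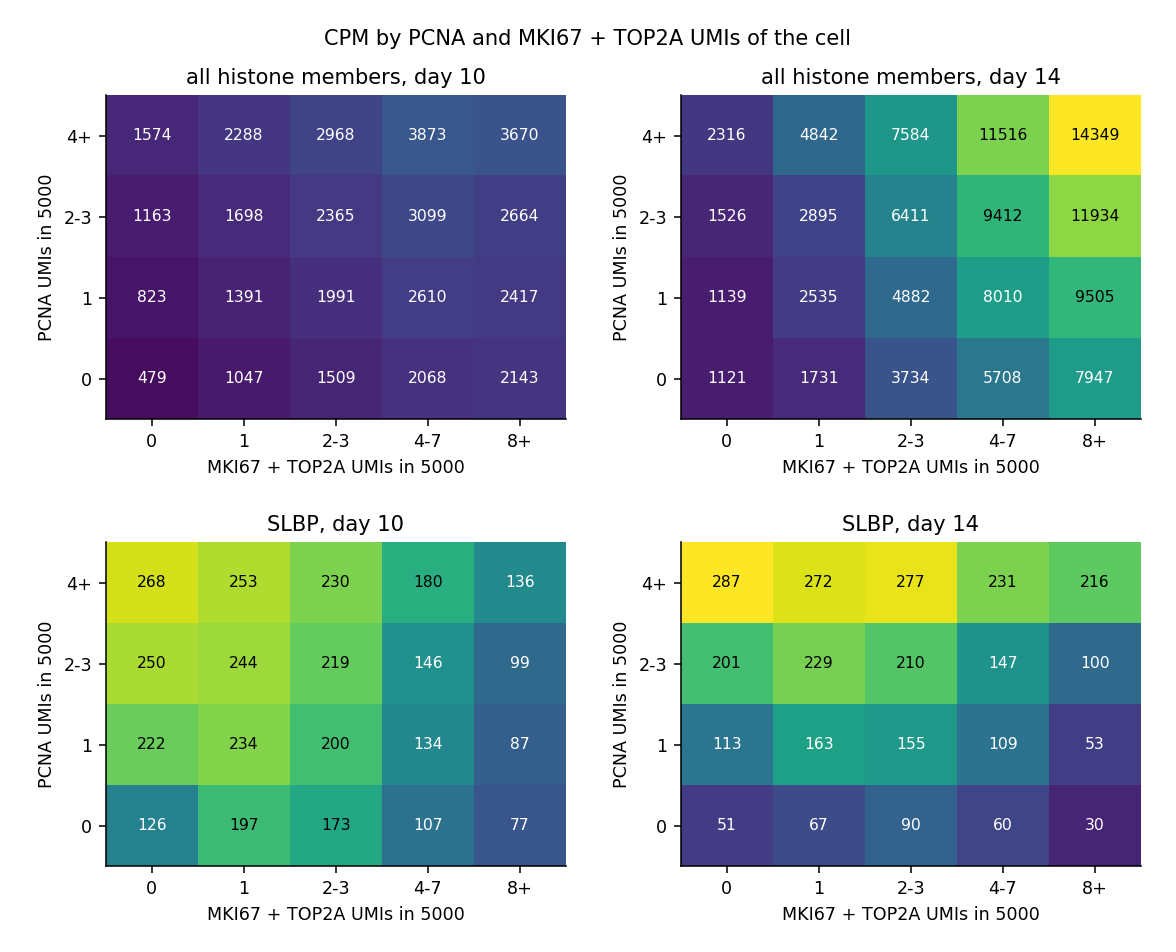
CPM of all histone members (top) and of *SLBP* (bottom) in cells binned by *PCNA* UMIs (vertical) and *MKI67* plus *TOP2A* UMIs (horizontal) after thinning to 5000 UMIs, at day 10 and day 14. The color scale starts at 0 and is shared within a row, and the histone sum is highest at the top right at day 14 (14349 CPM), whereas *SLBP* is highest at the top left (287 CPM).

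The level was spread unevenly over cells. After thinning to 5000 UMIs, a cell held a median of 4 histone UMIs at day 10 and 8 at day 14, with means of 8.39 and 23.0. The 10% of cells with the most held 33.7% and 37.7% of the histone UMIs. In cells with both *PCNA* and *MKI67* or *TOP2A* UMIs, the median was 10 at day 10 (quartiles 2 and 19) and 42 at day 14 (quartiles 8 and 66.2). The cells were counted in classes that hold more UMI values the higher they lie. By class there was a lower and an upper peak on both days. An upper peak of classes need not be a peak per UMI value. Of 3172 cells at day 14, 458 held 4 to 7 histone UMIs, 259 held 16 to 31, 905 held 32 to 63 and 873 held 64 to 127. Of 5520 cells at day 10, 920 held 2 to 3 UMIs, 721 held 4 to 7, 1017 held 8 to 15 and 1821 held 16 to 31, while 170 cells held 32 to 63, and 1 held more.

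**Figure D5:**
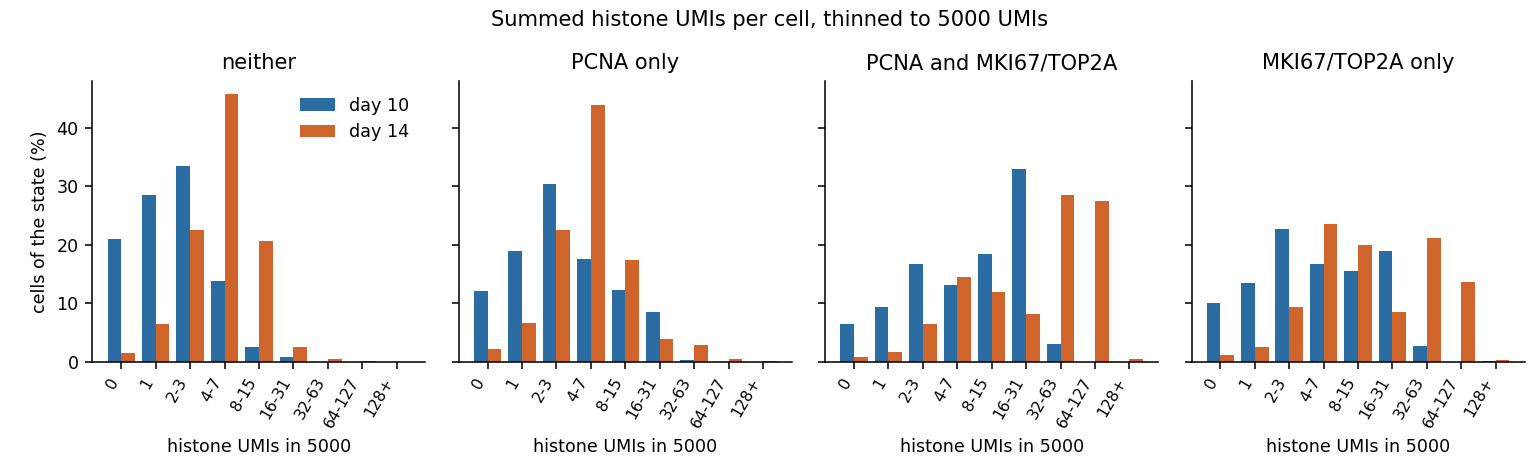
Share of cells (%) by the number of histone UMIs in 5000 UMIs of the cell, for each state, at day 10 and day 14. The classes widen with the number of UMIs, so bar heights are not shares per UMI value. In cells with both kinds of UMI the day 14 bars have one peak at 4 to 7 UMIs (14.4% of cells) and another from 32 to 127 UMIs, and the day 10 bars peak at 2 to 3 UMIs (16.7%) and at 16 to 31 UMIs (33.0%).

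The day ratio differed between the states. Day 14 over day 10, the sum of members stood at 2.34 (2.29 to 2.40) in cells with neither kind of UMI, 1.43 (1.42 to 1.45) with *PCNA* only, 3.43 (3.41 to 3.45) with both and 3.42 (3.39 to 3.45) with *MKI67* or *TOP2A* only. The ratio was thus above 1 in each state, and lowest in *PCNA*-only cells in all 5 histone types. *HIST1H3D* had a ratio of 5.55 in neither, 3.12 with *PCNA* only, 10.1 with both and 10.1 with *MKI67* or *TOP2A* only. *HIST1H1B* stood at 16.8 CPM in the neither cells of each day, a ratio of 1.002 (0.867 to 1.16), and at 68.0 and 54.1 CPM in *PCNA*-only cells, a ratio of 0.795 (0.747 to 0.845), and at 151 and 415 CPM in cells with both kinds. *HIST1H2AH* was likewise lower at day 14 in neither (4.03 and 2.46 CPM) and in *PCNA*-only cells (18.4 and 11.7 CPM), and higher in cells with both kinds (31.7 and 69.6 CPM). *HIST1H2AC* stood higher at day 14 in each state, with ratios of 3.97 (3.60 to 4.39), 3.15 (2.83 to 3.52), 4.17 (3.94 to 4.41) and 4.47 (4.10 to 4.87).

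The day ratio was also taken within gates of other cell types, since myeloid and cytotoxic genes differed between days. In the CD3 gate, with 9675 cells at day 10 and 6191 at day 14, histone RNA stood at 1945 and 5618 CPM, a ratio of 2.89 (2.88 to 2.90), the value of all cells. Within that gate the ratio was 2.03 in neither, 1.49 with *PCNA* only, 3.35 with both and 3.35 with *MKI67* or *TOP2A* only. In cells past the cytotoxic gate it stood at 1937 CPM in 530 cells at day 10 and 3887 CPM in 2339 cells at day 14. The myeloid gate held 1276 cells at day 10, in which histone RNA stood lowest, at 835 CPM.

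A list of genes tied to histone mRNA also held transcription factors and cell cycle genes, such as *CCNE2* and *CDK2*. Of this list, 0 of 15 genes tested were past 2-fold between days, with a median log2 ratio of -0.20. That count is near the shares over all genes, 4.18% higher and 2.16% lower. *SLBP* stood at 184 CPM at day 10 against 134 CPM at day 14, and *NPAT*, the coactivator of histone gene transcription, at 13.8 and 17.96 CPM. *CASP8AP2*, which encodes a component of the histone locus body, stood at 57.8 and 56.8 CPM. Between states, *SLBP* went with *PCNA*: at day 14 it stood at 50.9 CPM in neither, 190 CPM with *PCNA* only, 178 CPM with both and 50.3 CPM with *MKI67* or *TOP2A* only. *CCNE2*, a cyclin E gene of the G1 to S transition, stood at 2.80, 24.2, 26.3 and 2.65 CPM in the same order, and *CDK2*, the kinase partner of cyclin E, at 13.1, 32.04, 41.2 and 22.9 CPM. At day 14, 4 of 15 genes of the list were past 2-fold higher with *PCNA* only, beside 2.46% of all genes. With both it was 3 of 15, and with *MKI67* or *TOP2A* only 0 of 13, beside 6.03% and 4.05%. *CCNE2* and *CDK2* were among the 4 and among the 3.

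Histone chaperones, which carry new histones to DNA, had 0 of 15 genes tested past 2-fold between days, also near the 4.18% and 2.16% of all genes, with a median log2 ratio of -0.26. *NASP*, a chaperone of H3 and H4, stood at 673 and 451 CPM. *CHAF1A*, a subunit of the assembly factor CAF-1, stood at 15.6, 72.0, 89.5 and 30.1 CPM across the day 14 states in the order above, and *ASF1B*, an H3 and H4 chaperone, at 7.37, 50.4, 114 and 60.7 CPM. *HJURP*, the chaperone of the centromeric H3 variant, was instead highest with *MKI67* or *TOP2A* only, at 61.3 CPM. In cells with both kinds at day 14, 9 of 14 chaperones were past 2-fold higher than in neither, beside 6.03% of all genes. Of the S phase genes, 0 of 18 were past 2-fold between days and 18 of 18 were past 2-fold higher in these cells, and of the G2 and mitosis genes 0 of 15 and 14 of 14, beside the same shares of all genes.

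Histone genes outside the clusters, most of which give polyadenylated mRNA in and outside S phase, stood at other levels. Of the 9 tested, 0 were past 2-fold between days, near the 4.18% and 2.16% of all genes, and their median log2 ratio was 0.06. *H2AFZ*, which encodes the variant H2A.Z, stood at 2812 CPM at day 10 against 1670 CPM at day 14, the opposite direction to the clustered H2A genes. *H3F3A*, a gene of the replacement histone H3.3, stood at 2490 and 3064 CPM, above the clustered H3 sum on both days, and at 2802, 3037, 3155 and 3110 CPM across the day 14 states. *H1FX*, a linker histone gene outside the clusters, stood at 465 and 671 CPM. *H2AFX*, a variant gene that yields both a stem-loop and a polyadenylated mRNA, stood at 21.6, 50.2, 242 and 279 CPM across the day 14 states. *CENPA*, the centromeric H3 variant, stood at 2.99, 5.59, 78.5 and 156 CPM.

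Promoters of 65 members were found in a RefSeq table on GRCh38.p14 that gives 250 bases before to 50 after each start. *HIST1H4C* was not among them. Searched on both strands, the letters CCAAT occurred in 56 of the 65 and in 34.6% of all 35116 promoters, and TATAAA in 43 of the 65 and 11.5% of all. CCAAT occurred in 3 of 12 H4 promoters and in every promoter found for the other types. The octamer letters ATTTGCAT occurred in 14 of 18 H2B and 11 of 16 H2A promoters, in 0 of 6 H1 promoters and in 1.77% of all. The windows are not all separate. Those of genes that lie head to head can overlap, so a single match can count for both partners. The window of *HIST1H3D* was the same as that of *HIST1H2AD* (chr6:26199244-26199543), while the *HIST1H3D* gene was placed at chr6:26196784-26197286. The letters AAACACA, known from H1 promoters, occurred in 6 of 6 H1 promoters and in 5.64% of all. They are shown with their surroundings because the H1 members that held them differed widely in level. AAACACA, or its complement in *HIST1H1A*, is in capitals, and the sequences are on the strand of the gene.
HIST1H1D (chr6:26235072-26235131, minus strand): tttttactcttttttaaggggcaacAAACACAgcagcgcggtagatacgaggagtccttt
HIST1H1B (chr6:27867671-27867730, minus strand): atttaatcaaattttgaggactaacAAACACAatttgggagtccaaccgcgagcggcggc
HIST1H1C (chr6:26056555-26056614, minus strand): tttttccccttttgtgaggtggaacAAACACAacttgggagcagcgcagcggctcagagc
HIST1H1E (chr6:26156187-26156246, plus strand): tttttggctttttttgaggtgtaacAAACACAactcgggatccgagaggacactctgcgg
HIST1H1A (chr6:26017936-26017995, minus strand): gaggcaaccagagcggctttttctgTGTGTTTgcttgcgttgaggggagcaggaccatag
HIST1H1T (chr6:26108206-26108265, minus strand): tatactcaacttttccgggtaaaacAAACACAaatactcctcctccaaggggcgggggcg

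*HIST1H1B* held the letters once more on this strand and *HIST1H1C* once on the other. In the 4 H1 genes above 10 CPM, the letters shown began 117 or 119 bases before the start, and in *HIST1H1T*, at 0.0429 and 0.0390 CPM, 105 bases before it. In *HIST1H1A*, at 0.129 and 0.247 CPM, they lay on the opposite strand, 183 bases before the start. A match of letters is a description of the window and not a bound site.

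H2A and H2B genes often lie head to head with a short stretch between their starts. Of the 68 placed members, 13 pairs on opposite strands had starts within 500 bases of each other, 12 of them an H2A and an H2B gene. Some partners were captured at like levels on a single day, and others stood far apart. *HIST1H2BG* and *HIST1H2AE*, with 232 bases between their starts, stood at 24.2 and 28.9 CPM at day 14. At day 10 their order was the reverse, at 11.1 and 6.65 CPM. *HIST1H2BL* and *HIST1H2AI*, with 243 bases, stood at 2.64 and 3.31 CPM at day 10 but at 5.01 and 11.3 CPM at day 14. *HIST2H2AC* stood at 53.0 and 151 CPM, whereas *HIST2H2BE*, 235 bases away, stood at 2.16 and 4.79 CPM. *HIST1H2AC* and *HIST1H2BC*, with 218 bases between them, stood at 16.1 and 10.1 CPM at day 10 and at 69.0 and 18.6 CPM at day 14, with day ratios of 4.27 and 1.85. *HIST1H2BN* and *HIST1H2AK*, with 169 bases between them, stood at 36.7 and 10.8 CPM at day 14, with day ratios of 1.54 and 3.68. In *HIST1H2AD* and *HIST1H2BF*, 222 bases apart, the levels were 3.57 and 29.2 CPM at day 14, while the intervals of their day ratios, 3.67 (3.12 to 4.33) and 3.38 (3.20 to 3.57), overlapped.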

How the data were processed

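CD7+ cells of the H1 line were profiled in 1 droplet library per day. Per the labels' processing notes, the authors ran Cell Ranger 4.0.0 on GRCh38 and used Seurat. The deposited matrices hold raw counts of UMIs per gene and barcode, with 2759529 barcodes at day 10 and 3229665 at day 14. Kept barcodes had 1000 to 7000 genes with a UMI (the study's limits, stated for detected transcripts, were read as detected genes) and at most 18% mitochondrial UMIs. They held 209674218 and 154027858 UMIs. Doublets were not called or removed.

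UMIs were summed over cells, with exact Poisson intervals for levels and exact conditional binomial intervals for ratios, at 95%. A gene counted as past 2-fold on log2 of CPM plus 5, among genes with a mean of both groups of at least 10 CPM. With 1 library per day nothing was tested. States and gates were set on cells thinned to 5000 UMIs (seed 1), which left out 291 and 382 shallower cells, and levels used all UMIs of those cells. The CD3 gate needed at least 2 UMIs of *CD3D*, *CD3E* and *CD3G*. Members named are those at 10 CPM or more in a library, the 3 highest of each type, and others singled out after their values were seen, and up to 4 genes per other list. The members and lists were chosen with earlier results of these data known. Stem-loops were sought with GENCODE 44, allowing 1 mismatch, and RefSeq promoters were matched by symbol. In simulated data, 45 of 50 genes made at 0.4-fold passed the limit, as did 50 of 50 at each of 0.25, 2.5 and 4-fold, and 0 of 7616 unchanged genes did. Alternatives covered cell filters, scaling, pseudocount, level filter, gates, thinning and the limit for a state. Python 3.11.15, numpy 2.4.6, pandas 2.3.3, scipy 1.17.1 and matplotlib 3.10.9 were used.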

Additional observations from a re-analysis of the deposited data

Results flagged for a closer look

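Histone RNA was also counted in barcodes that the comparisons did not use. In barcodes with over 7000 genes it stood at 2417 CPM (29 barcodes) at day 10 and 6402 CPM (55 barcodes) at day 14. In barcodes with over 18% mitochondrial UMIs it stood at 1128 CPM (14 barcodes, 70 histone UMIs) and 3943 CPM (50 barcodes). In barcodes with under 1000 genes and over 100 UMIs it stood at 1350 CPM (845 barcodes) and 2895 CPM (22283 barcodes). The day 14 value was the higher in each of these classes.

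The ratio of *PCNA*-only cells to cells with neither kind of UMI lay on opposite sides of 1 on the days, with intervals that did not hold 1, for 2 linker histone genes among the members with a mean of both states of at least 10 CPM on each day, and for 2 histone types. For *HIST1H1C* it was 1.484 at day 10 and 0.9099 at day 14, and for *HIST1H1E* 1.633 and 0.9238. Below that level, *HIST1H2BG* did the same, at 1.307 and 0.7316. For the H2A sum it was 1.226 and 0.8007, and for the H2B sum 1.395 and 0.9161. With 1 library per day the difference between days was not tested.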

How the results depend on the processing

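The day ratio of the histone sum, 2.89, was 2.92 with a mitochondrial limit of 10%, 2.90 without the 5% of cells with the most UMIs and 2.91 with median-ratio scaling. Members past 2-fold between days numbered 14 to 17 in all alternatives, but the number tested differed. It was 15 of 22 in the main setting, 17 of 48 with a filter at a mean of 2 CPM and 17 of 64 with no filter. The share over all genes was not counted at these lower filters. The state ratios are given in the order *PCNA* only, both and *MKI67* or *TOP2A* only. In the CD3 gate they were 2.03, 4.19 and 3.15 at day 10 and 1.49, 6.90 and 5.19 at day 14. A limit of 2 UMIs kept the cells with neither unchanged and left out cells with exactly 1 UMI of either kind. Cells with both kinds at day 10 then numbered 2201 in place of 5520. The ratios with that limit were 2.67, 5.94 and 3.97, then 1.65, 8.70 and 5.98. With states from unthinned UMIs they were 1.33, 5.40 and 2.92, then 0.854, 5.92 and 3.48, so the *PCNA*-only ratio of day 14 turned. Thinned to 3000 UMIs they were 1.73, 3.14 and 2.51, then 1.96 and 6.84 for the first pair at day 14. Without the 5% of cells with the most UMIs the ratios of both and *MKI67* or *TOP2A* only were 5.19 and 3.77 at day 10, and the 3 ratios of day 14 were 1.36, 7.52 and 5.36. Without *HIST1H4C*, an alternative chosen after seeing the data, the day ratio was 2.73 and the state ratios 1.81, 3.25 and 2.36, then 1.08, 4.32 and 2.87. Leaving out barcodes kept in both libraries, also chosen after seeing the data, moved no result beyond its interval. With a filter at a mean of 2 CPM, 4 of 35 members in place of 2 of 15 were past 2-fold higher in *PCNA*-only cells of day 14, and 28 of 46 in place of 18 of 26 in those with *MKI67* or *TOP2A* only. Here too the share over all genes was not counted at that filter. The day ratio within states, in the order neither, *PCNA* only, both, *MKI67* or *TOP2A* only, was 2.03, 1.49, 3.35 and 3.35 in the CD3 gate and 3.01, 1.93, 3.30 and 3.59 with unthinned states. The cause of these shifts was not tested. No paired analysis was possible because each day has 1 library and no result comes from a test. Intervals cover counting error alone.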
